A study of Avicennia schaueriana with 18 samples.

Results

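As_46832 and As_31165 are 2 of the 49490 transcripts in the count table of *Avicennia schaueriana*, and their best match in *Arabidopsis thaliana* was AT3G08860, the gene called alanine--glyoxylate aminotransferase 2 homolog 3. They are the 2 that share this match in the study's list of example transcripts, the only source of gene names used here, so further matches among the other transcripts were not searched. The list holds them because their stem levels differed between the equatorial and the subtropical site. The stem site difference is therefore given below as a description, without a test. *A. schaueriana* is a mangrove tree of the Atlantic coast of South America, and the study compared gene expression between trees of 2 coastal forests at contrasting latitudes to ask how the environment varies with expression in the field. Leaves, stems and flowers were collected from 6 adult flowering trees under field conditions, 3 equatorial ones called Eq4, Eq5 and Eq6 and 3 subtropical ones called St1, St2 and St4, so that each of the 18 libraries held 1 tissue of 1 tree and each group held 3 libraries. Neither site received a treatment, and the labels give no genotype for the trees. At sampling the air was at 28.3 to 30.1 °C with 47 to 51% relative humidity around the equatorial trees and at 18.3 to 20.9 °C with 82 to 86% around the subtropical trees. Site, tree origin, climate and sampling date cannot be told apart in this design.

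Aminotransferases move an amino group from an amino acid to a keto acid and carry pyridoxal phosphate, the active form of vitamin B6, as their cofactor. In photorespiration, which starts when Rubisco fixes oxygen in place of CO2, glyoxylate is converted to glycine by such enzymes, and in Arabidopsis the main activity is assigned to peroxisomal enzymes of other families. The AT3G08860 protein belongs to a group of predicted mitochondrial aminotransferases that is named after alanine and glyoxylate as substrates, and the role of its mangrove matches was not measured here. Stomatal closure under water deficit lowers the CO2 supply of a leaf, which is the setting in which photorespiration is usually discussed.

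In As_46832, the read counts of the equatorial stems were 49 in Eq4, 60 in Eq5 and 64 in Eq6. The subtropical stems gave 2 reads in St1, 1 in St2 and 1 in St4. In CPM (read counts relative to library size, scaled by the TMM method of edgeR over all 18 libraries) the equatorial stems held 3.11 in Eq4, 5.44 in Eq5 and 3.56 in Eq6, with a mean of 4.04 ± 1.23 (SD, n = 3), and the subtropical stems 0.136, 0.0804 and 0.0602, with a mean of 0.0921 ± 0.0391 (SD, n = 3). Every equatorial stem thus lay above every subtropical stem, and none of the subtropical stems passed 2 reads. Such a separation, with all 3 equatorial above all 3 subtropical libraries, was found in 6.76% of all transcripts counted in stems, and nothing is read from it here because the stem contrast chose the transcripts. The ratio of the pooled levels was 42.3, with an exact 95% counting interval of 16.2 to 157.1.

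In As_31165 the same stems gave 5 reads in Eq4, 13 in Eq5 and 30 in Eq6, and 0 in each of the 3 subtropical stems. The levels in the equatorial stems were 0.318, 1.18 and 1.67 CPM, with a mean of 1.05 ± 0.684 (SD, n = 3). This SD is large beside the mean, and the exact counting interval of Eq4, 0.103 to 0.742 CPM, does not reach that of Eq6, 1.13 to 2.38 CPM. For As_46832 the corresponding intervals were 2.3 to 4.1 CPM in Eq4, 4.1 to 7.0 in Eq5 and 2.7 to 4.5 in Eq6, so that Eq5 was highest and the order of the trees was not that of As_31165. The pooled level of As_31165 in the equatorial stems was 15.7 times the floor of 3 counts over the subtropical stems, 0.0685 CPM. Without tree Eq6, which held 30 of its 48 reads, it was 9.81 times that floor. Such ratios to a floor leave out the counting error of the level itself, so they are no strict lower bounds. Intervals and floors cover counting error only and leave out the spread between trees. They treat reads as independent, although the reads carried no molecular identifiers and both reads of a fragment could be counted. The intervals are too narrow where that happened.

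**Figure D1:**
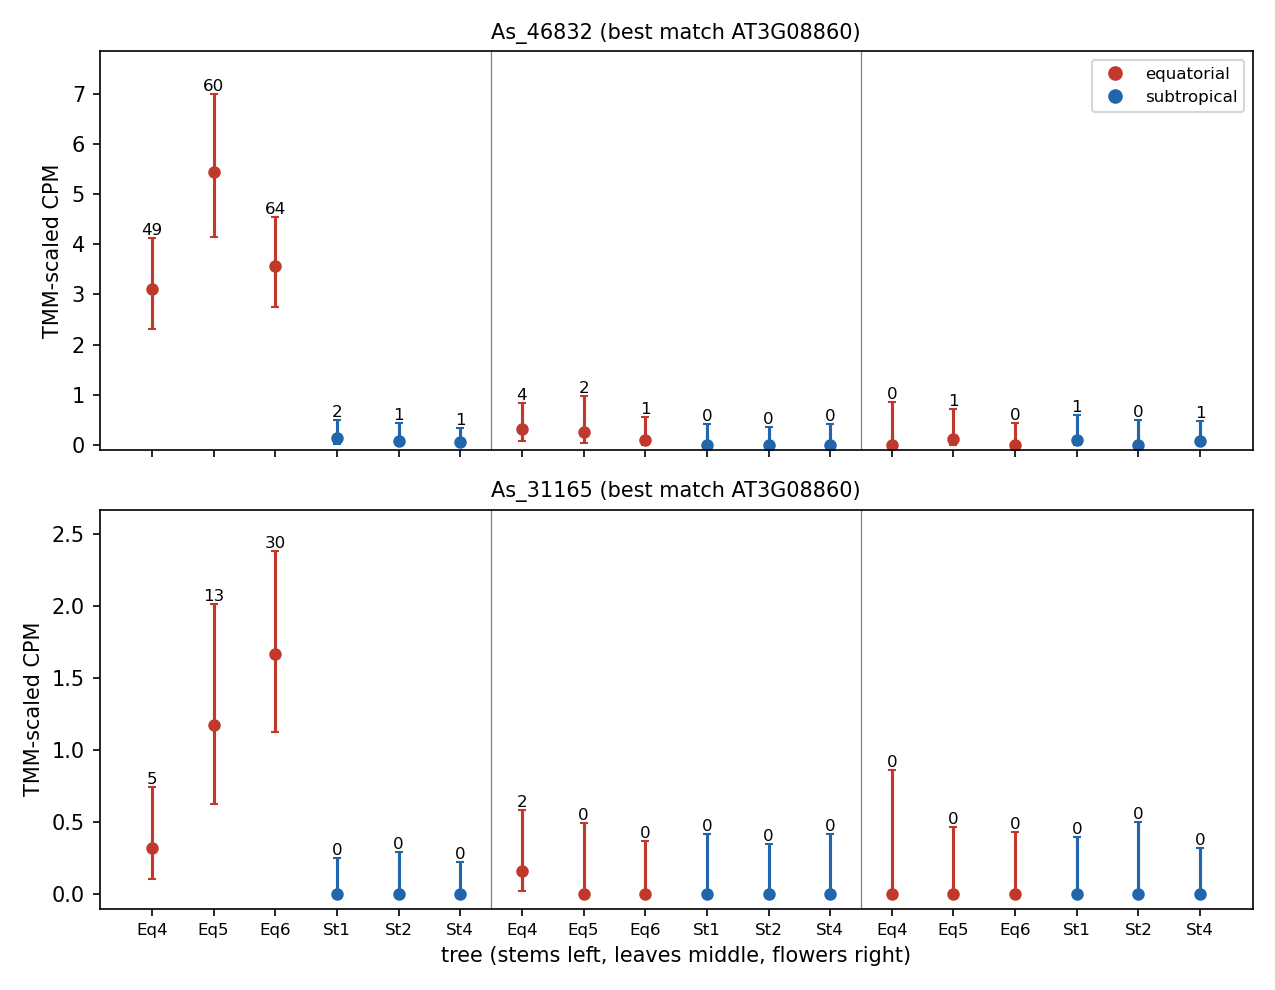
Level of As_46832 (top) and As_31165 (bottom) in each of the 18 libraries, in TMM-scaled CPM, with stems at the left, leaves in the middle and flowers at the right. Points are single libraries, bars are exact 95% counting intervals and the number above each bar is the read count, which reached 64 in As_46832 and 30 in As_31165 in equatorial stems and did not pass 4 in any other library.

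The fitted log2 fold changes, subtropical minus equatorial, were -5.33 (SE 0.54) for As_46832 and -6.97 (SE 1.39) for As_31165 in a fit without a filter on low counts. With a prior count of 2 they became -4.19 and -3.13, so that the order of the 2 transcripts turned with this setting. The value of As_31165 is set against a group with 0 reads and is no bound.

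Leaves gave few reads of either transcript. As_46832 was counted 4 times in the leaf of Eq4, 2 times in that of Eq5 and 1 time in that of Eq6, and 0 times in each subtropical leaf. The levels were 0.326, 0.270 and 0.101 CPM in the equatorial leaves, with a mean of 0.232 ± 0.117 (SD, n = 3). All 3 equatorial leaves thus lay above the subtropical leaves, as in 8.59% of all transcripts counted in leaves, although 2 of the 3 were under the 3 counts taken as the floor of a library. The pooled level was 2.22 times the floor of the subtropical leaves, 0.107 CPM. An exact two-sided permutation test of the difference gave p = 0.1 (adjusted p = 0.3 over the 3 tests of this kind), which is the smallest p that 3 against 3 libraries allow.

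As_31165 was counted 2 times in the leaf of Eq4 and 0 times in the other 5 leaves. That leaf level was 0.163 CPM, and the exact permutation test gave p = 1 (adjusted p = 1). Of the 2 transcripts, 0 passed edgeR's quasi-likelihood test in leaves without a filter at an adjusted p of 0.05, at which 0.0968% of all 47535 transcripts tested were called. An unadjusted p under 0.05 was found for 1 of the 2, as for 5371 of the 47535. The log2 fold change of As_46832 was -4.23 (SE 1.71, unadjusted p = 0.0449, adjusted p = 0.433), and the adjusted p ranged from 0.387 to 0.672 over the 8 alternatives that gave one. For As_31165 it was -2.53 (SE 2.06, adjusted p = 0.696, range 0.671 to 0.974 over 7 alternatives). DESeq2 gave no adjusted p to either transcript in leaves. The leaf comparison thus rests on 7 reads against 0 for As_46832 and 2 against 0 for As_31165, and neither was called.

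In flowers neither transcript separated the sites, which 4.17% of all transcripts counted there did with the equatorial trees higher. As_46832 was counted 1 time in Eq5, 1 time in St1 and 1 time in St4, and 0 times in the other 3 flower libraries. As_31165 was counted in none of the 6, where the floor of 3 counts corresponds to 0.261 to 0.699 CPM. Each of these floors is below the lowest equatorial stem level of As_46832, 3.11 CPM, so that stem levels of that transcript would have been seen in flowers. For As_31165 the lowest stem level, 0.318 CPM in Eq4, is under the floors of most flower libraries.

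The flower library labelled Eq6 stood apart from its label. Of 65 transcripts that were counted in the leaf and stem libraries of every subtropical tree and of no equatorial tree, it held 53, against 3 in each of the flower libraries Eq4 and Eq5 and 48 to 59 in the subtropical ones. Of 36 transcripts with the reverse pattern it held 6, against 31 in each of Eq4 and Eq5. As_31165, with 0 reads, could not be tested in flowers. As_46832 did not pass there, where the same test called 0% of 48706 transcripts (2751 had an unadjusted p under 0.05) and, with the default filter, 0 of 29232, against 6 by edgeR's exact test and 50 by DESeq2. For As_46832 the log2 fold change in flowers was 0.46 (SE 1.63, adjusted p = 0.991 by the quasi-likelihood test, range 0.987 to 1 over the 8 alternatives that gave one, DESeq2 giving none), and it turned to -0.11 without the flower library labelled Eq6. The exact permutation test gave p = 1 with and without that library.

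Within the equatorial trees, the pooled level of both transcripts was higher in stems than in leaves. The ratio of the pooled stem level to the pooled leaf level was 16.4 (exact 95% counting interval 7.77 to 41.3) for As_46832 and 15.9 (4.17 to 135) for As_31165. Tree by tree, the stem level of As_46832 was 9.56 times the leaf level in Eq4 (3.51 to 36.5), 20.1 times in Eq5 (5.34 to 170.1) and 35.4 times in Eq6 (6.13 to 1419). The 3 intervals overlap and cover counting error only, with 4 leaf reads in Eq4, 2 in Eq5 and 1 in Eq6. The leaf value of As_31165 rests on 2 reads of Eq4, whose stem held 0.318 CPM (0.103 to 0.742) and whose leaf 0.163 CPM (0.0197 to 0.588), so that within this tree the intervals overlap. The leaves of Eq5 and Eq6 held 0 reads of As_31165. These ratios rest on equatorial stems that the choice of the transcripts used, so they are descriptions and carry no test. Against equatorial flowers the stem level of As_46832 was 80.1 times as high (14.2 to 3180), or 49.5 times (8.70 to 1973) without the stem and flower of tree Eq6. The pooled level of As_31165 in equatorial stems was 7.40 times the floor of the equatorial flowers, or 2.72 times without tree Eq6.

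Flowers and leaves, which the choice of the transcripts did not use, did not differ in a way that passed the quasi-likelihood test. Without a filter, 15.6% of all transcripts were called between flowers and leaves of equatorial trees and 21.3% in subtropical trees, and As_46832 was not among them at either site. As_31165 was tested in equatorial trees alone and was not called, and neither had an unadjusted p under 0.05. In equatorial trees the log2 fold change of flower against leaf was -2.05 (SE 1.35, adjusted p = 0.348) for As_46832 and -2.39 (SE 1.98, adjusted p = 0.475) for As_31165. Without tree Eq6 these values became -1.80 and -2.82, and without tree Eq5 that of As_46832 became -4.02. In subtropical trees it was 2.64 (SE 1.83, adjusted p = 0.367) for As_46832, and As_31165 had 0 reads in both tissues. Only 1 read of As_46832 in equatorial flowers and 2 in subtropical flowers lie behind these values.

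Ordered by mean level, As_46832 was highest in equatorial stems (4.04 CPM), followed by equatorial leaves (0.232 ± 0.117), subtropical stems (0.0921 ± 0.0391), subtropical flowers (0.0649 ± 0.0572), equatorial flowers (0.0424 ± 0.0734) and subtropical leaves (0 reads). Only equatorial stems did not overlap with their neighbour in this order. The means from subtropical stems downward rest on 4 reads or fewer in a group of 3 libraries and lie within each other's spread, apart from the step from stems to leaves of the subtropical trees, with 4 reads against 0. For As_31165 the order was equatorial stems (1.05 CPM), equatorial leaves (0.0543 ± 0.0940) and the other 4 groups at 0 reads.

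Over all libraries As_46832 had 187 reads, 173 of them (92.5%) in equatorial stems, and As_31165 had 50, of which 48 (96%) were in equatorial stems. After scaling for depth, equatorial stems held 90.3% and 95.1% of the summed CPM. The median over the 29324 coding transcripts with at least 50 reads was 16.0%. At or above As_46832 were 8 of them (0.0273%), and at or above As_31165 were 5 (0.0171%). Both counts include the transcript itself, and that of As_46832 also includes As_31165. The choice of the transcripts used part of this measure. Both also reached the cut of 50 reads only through their equatorial stem reads, As_31165 with exactly 50 in total. Their places in this order are therefore partly fixed and carry no test. Both were scarce for coding transcripts, whose median total was 1870 reads: As_46832 stood at percentile 18.4 and As_31165 at percentile 2.99.

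**Figure D2:**
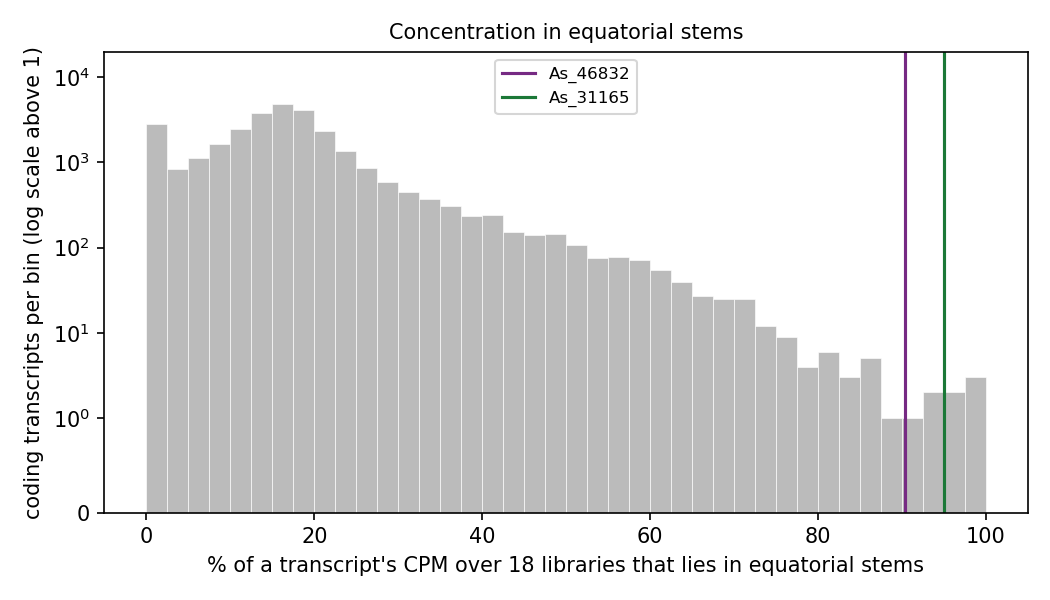
Share of each coding transcript's scaled CPM over 18 libraries that lies in the 3 equatorial stems (horizontal axis, %), as a histogram of the transcripts with at least 50 reads (vertical axis, log scale above 1). The lines mark As_46832 at 90.3% and As_31165 at 95.1%, with the median of all at 16.0%.

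The split of the reads between the 2 transcripts was described for each equatorial stem. As_46832 took 49 of the 54 reads of both in the stem of Eq4 (90.7%, Clopper-Pearson 95% interval 79.7 to 96.9%), 60 of 73 in Eq5 (82.2%, 71.5 to 90.2%) and 64 of 94 in Eq6 (68.1%, 57.7 to 77.3%). The share was lowest in Eq6 and highest in Eq4. The intervals treat reads as independent and are too narrow where both reads of a fragment were counted, and each tree gave 1 stem library, so that no difference between trees is read from them. In equatorial leaves As_46832 took 7 of 9 reads (77.8%, 40.0 to 97.2%), close to the 78.3% (72.3 to 83.5%) of the pooled stems but with an interval too wide to tell them apart. The share is of reads, not of molecules, because transcript lengths were not used here, and reads that fit both transcripts were left out by the authors' unique mapping.

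Transcripts of secondary wall formation, which mark the woody part of a stem, varied over the same trees. The summed level of 6 of them (the cellulose synthases CESA4, CESA8 and IRX3, the laccase IRX12, the arabinogalactan protein FLA11 and COBL4) was 165 CPM in the stem of Eq4, 351 in Eq5 and 2984 in Eq6, against 240 to 637 CPM in subtropical stems. As_31165 followed the same order, Eq4 below Eq5 below Eq6, and As_46832 did not. The wall sums of the subtropical stems lay within the range of the equatorial ones, while these stems held at most 2 reads of As_46832 and 0 of As_31165. In leaves the wall sum reached 16.7 to 109 CPM in the equatorial trees, against 7.45 to 10.6 in the subtropical ones. The study had chosen all 6 wall transcripts from these same leaf libraries, so their leaf direction was fixed by that choice and nothing is read from it. None of the 6 was at 0 in any library. The summed level of 4 leaf markers (PSBO1, PSAO and PSB27 of the photosystems and the blue light receptor PHOT2) was 322 to 532 CPM in equatorial leaves, against 1118 to 1370 in subtropical ones, and 160 to 307 against 312 to 426 CPM in stems. These 4 were also chosen by the study in leaves, so their leaf values are a description. The part of tissue makeup in the levels of the aminotransferase transcripts was not tested, and in bulk tissue fewer cells of a type and less RNA per cell cannot be told apart.

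**Figure D3:**
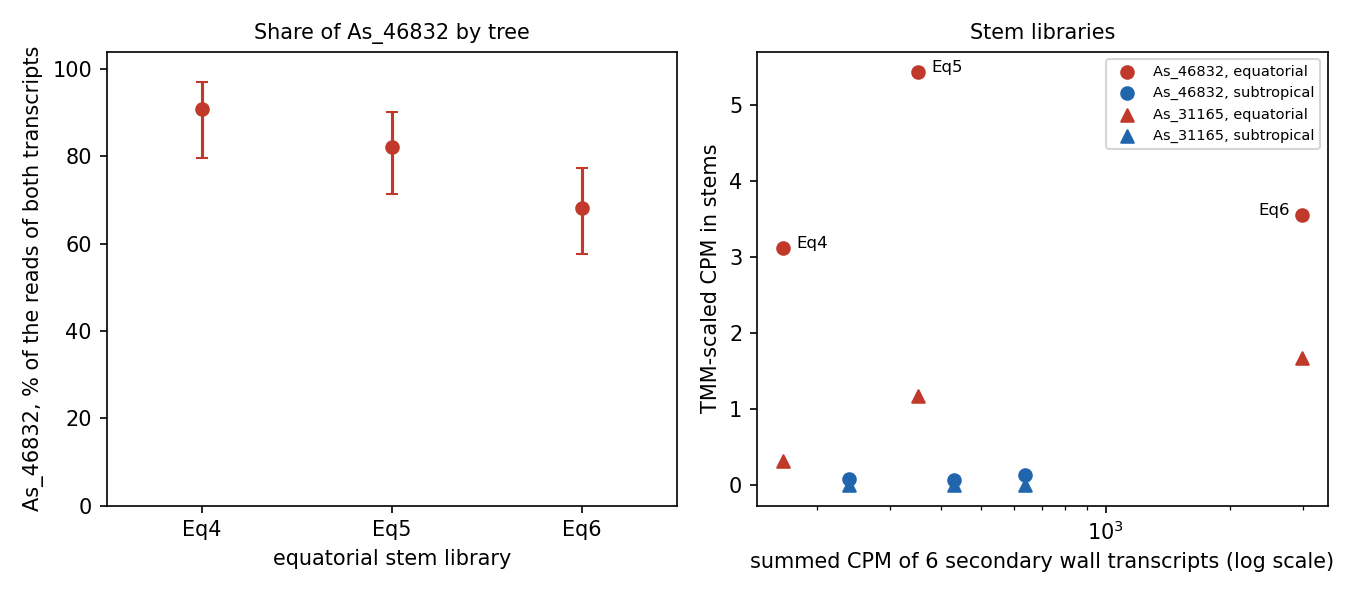
Left, share of As_46832 in the reads of both aminotransferase transcripts in each equatorial stem (%, points) with Clopper-Pearson 95% intervals (bars), with 90.7% in Eq4 as the highest and 68.1% in Eq6 as the lowest. Right, level of each transcript in the 6 stem libraries (CPM) against the summed level of 6 secondary wall transcripts (log scale), where the subtropical stems at 240 to 637 lie between Eq4 and Eq6 but near 0 on the vertical axis.

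Over the 18 libraries the log2 CPM of the 2 transcripts had a Pearson correlation of 0.930 and a Spearman correlation of 0.723. These are descriptions: both transcripts were chosen in the stem libraries that carry the correlation, and most other libraries are at or near 0 for both.

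The transcripts whose pattern over the 18 libraries was most like theirs were sought by the Pearson correlation of log2 CPM among 26394 coding transcripts that passed the low-count filter. For As_46832 the 5 nearest were As_17016 (r = 0.875), As_26684 (0.843), As_15708 (0.834), As_624 (0.829) and As_45261 (0.822). As_45261 is a match of MYB52, a MYB transcription factor linked to secondary walls in Arabidopsis. For As_31165 they were As_41343 (0.841), As_17016 (0.824), As_11750 (0.817), As_38198 (0.811) and As_12497 (0.810). The study's list of examples gives no Arabidopsis match for the others of these. The ranks are descriptions, since the equatorial stems that the choice of both transcripts used carry most of their pattern. Since r ignores scale, several of the nearest transcripts were abundant in every library: As_17016 had 795 to 1053 reads in equatorial stems, 576 to 879 in subtropical stems and 155 to 570 in leaves and flowers.

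As_15708 and As_38198 came closest to presence in some groups and absence in others. As_15708 was counted 142, 37 and 73 times in the equatorial stems, in the order Eq4, Eq5 and Eq6, 9, 4 and 43 times in their leaves, and 0 times in every flower and subtropical library. As_38198 was counted 62, 92 and 194 times in the equatorial stems, 0, 4 and 79 times in the subtropical stems, in the order St1, St2 and St4, and 0 times in all leaves and flowers. It thus resembled As_31165 in tissue and in the order of the equatorial trees but was present in 2 subtropical stems. Among the 105 candidates that the study's list pairs with an Arabidopsis gene, the nearest to As_46832 were MYB52, ACO3 (an aconitase of the citrate cycle, r = 0.754) and a match of an O-glycosyl hydrolase of family 17 (As_18420, r = 0.751). Those nearest to As_31165 were MYB52 (r = 0.779), ACO3 (0.664) and RAP2.3 (0.658), an ethylene response factor. With Spearman's correlation none of the 5 nearest was shared for either transcript, so these names depend on the measure. The study listed its examples for site differences in these same libraries, so likeness among them is partly built in.

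Pyridoxal phosphate, the cofactor of aminotransferases, is made by the PDX enzymes. Its pathway was represented by 2 transcripts matching PDX2, the glutaminase part of that enzyme, which the study had chosen from these same libraries, As_48360 in leaves and stems and As_4337 in leaves. In stems As_48360 stood at 8.77 ± 2.02 CPM in equatorial trees, against 2.53 ± 0.820 in subtropical ones (SD, n = 3), and As_4337 had 7.80 ± 0.371 and 3.58 ± 0.515 CPM. In leaves the values were 25.4 ± 8.24 and 6.31 ± 3.32 CPM for As_48360, and 23.2 ± 7.86 and 8.29 ± 1.92 CPM for As_4337. The sites did not overlap for either transcript in either tissue, a separation seen with equatorial trees higher in 8.59% of all transcripts in leaves and 6.76% in stems. The study's choice used all of these differences apart from that of As_4337 in stems. By edgeR's quasi-likelihood test with the default filter 0 of 2 were called in leaves, against 0.198% of all transcripts, and 0 of 2 in stems, against 0.228%. Both had an unadjusted p under 0.05 in both tissues, as had 3693 of the 28243 transcripts tested in leaves and 3093 of the 34269 tested in stems. The log2 fold changes were -2.00 (adjusted p = 0.129) and -1.47 (adjusted p = 0.138) in leaves, and -1.77 (adjusted p = 0.167) and -1.11 (adjusted p = 0.265) in stems, for As_48360 and As_4337 respectively.

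The 13 transcripts of water deficit, osmoregulation and ion and water transport were described beside them, also chosen by the study from these libraries, all in leaves and As_27360 in stems too. In leaves their direction was fixed by that choice, and the leaf values are a description: 12 of the 13 passed the filter, 0 were called, all 12 had a negative log2 fold change, with a median of -2.36 against -0.00 over all transcripts tested, and the smallest adjusted p was 0.0560. All 12 had an unadjusted p under 0.05, as had 3693 of the 28243 transcripts tested, and 12 of the 13 had no overlap between the sites, against 8.59% of all transcripts with equatorial trees higher. NCED3, the enzyme that commits carotenoids to abscisic acid, stood at 81.4 ± 22.7 CPM in equatorial leaves, against 12.7 ± 6.79 in subtropical ones. GolS1, which starts raffinose synthesis, had 117 ± 102 and 8.10 ± 6.67 CPM. In stems, the tissue of the aminotransferase reads, all 13 were tested and 0 were called. Of the 13, 9 had a negative log2 fold change, with a median of -0.46 and a range of -2.34 to 0.76 against a median of -0.02 over all tested. An unadjusted p under 0.05 was found for 1 of the 13, as for 3093 of the 34269 transcripts tested in stems. The 1 transcript was As_27360, a match of an early-responsive to dehydration protein, with 5.43 ± 2.68 CPM in equatorial stems, against 1.06 ± 0.343 in subtropical ones (adjusted p = 0.173 by the same test), and it was the 1 of the 13 without overlap between the sites in stems, where 6.76% of all transcripts had none with equatorial trees higher. The study had chosen As_27360 in stems as well, so this is no independent result. NCED3 in stems had 40.6 ± 39.1 and 25.2 ± 22.8 CPM, and GolS1 had 517 ± 616 and 861 ± 468 CPM, differences smaller than the spread between trees.

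**Figure D4:**
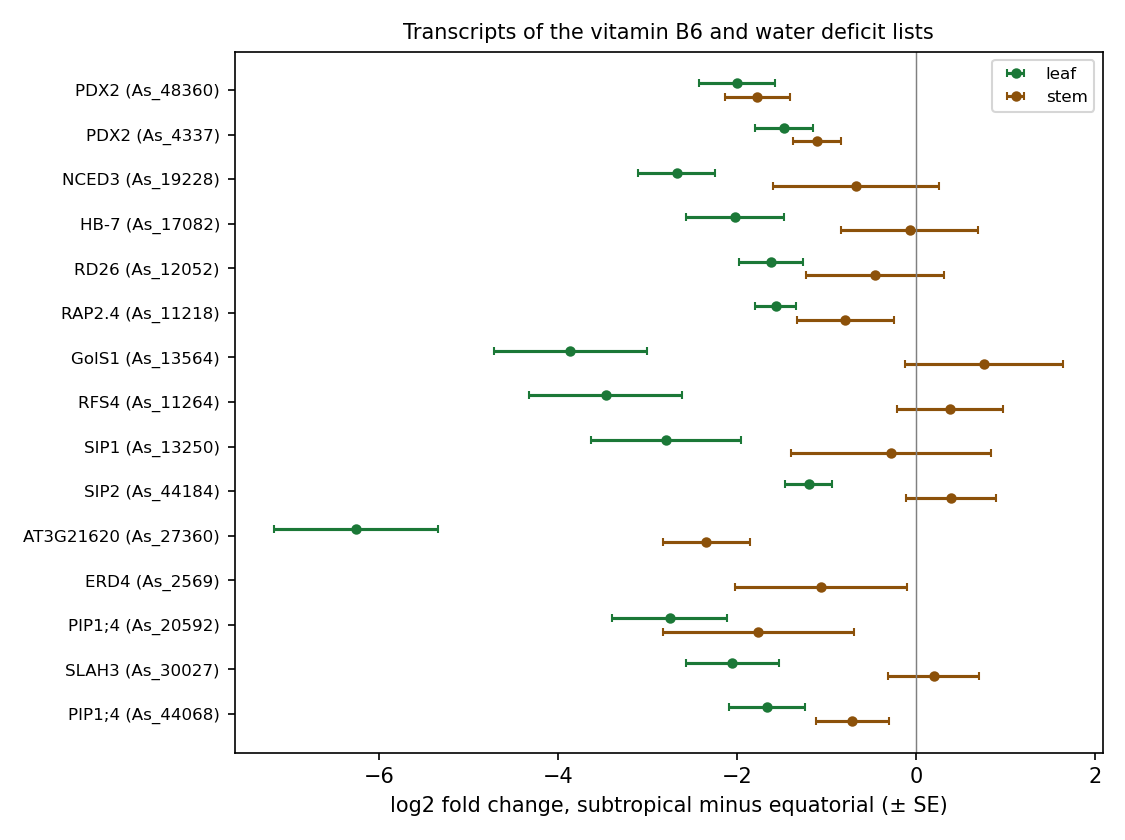
Log2 fold change, subtropical minus equatorial, with its standard error, in leaves and stems for the 2 vitamin B6 and 13 water deficit, osmoregulation and transport transcripts, from edgeR's quasi-likelihood fit. Leaf values lie between -6.26 and -1.20 and stem values between -2.34 and 0.76, 1 leaf value is missing because that transcript did not pass the filter, and none passed the threshold.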

How the data were processed

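RNA from leaves, stems and flowers of 6 trees was sequenced as paired-end reads on an Illumina instrument. The authors assembled the reads without a genome, mapped them to the assembly with bowtie1 in single-read mode (Bowtie 0.12.2 in the submitters' processing notes) and deposited raw counts of uniquely mapped reads per transcript. The counts were used as deposited, and 0 columns were left aside. Libraries held 5055480 to 15802680 counts, and no replicate pair differed by as little as sampling noise (the smallest chi-square was 26.0 per transcript that had 20 counts or more in the pair). edgeR estimated a biological coefficient of variation for leaves (0.359), stems (0.402) and flowers (0.417), and in flowers it was 0.388 without the library labelled Eq6.

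Sites were compared within each tissue, and flowers with leaves within each site, with glmQLFit and glmQLFTest, the quasi-likelihood test of edgeR 4.0.16 (limma 3.58.1, R 4.3.3), with TMM scaling, filterByExpr and p-values adjusted by Benjamini-Hochberg over every transcript tested, at a threshold of 0.05. The study's methods name edgeR's exact test, which was run as an alternative beside DESeq2 1.42.0, RLE scaling, other filters and leaving out each library. The default filter removed both transcripts in leaves and flowers and As_31165 in stems, so their values come from fits without a filter, a choice added after the data were seen. Standard errors were derived as the size of the log2 fold change divided by the root of F. Permutation tests used scipy 1.17.1. Intervals are exact, at 95%, and the floor is 3 counts. Log2 CPM used a prior count of 2. The scripts were tested on simulated data.

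The same tree gave each leaf and flower by the labels. Their deviations from the group means over 37587 transcripts correlated at 0.0592 (Eq4), 0.209 (Eq5), 0.156 (Eq6), 0.243 (St1), 0.319 (St2) and 0.242 (St4). The alternative fit took the tree as a replicate block.

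The transcripts and lists were chosen with earlier results of these data known. The text names both transcripts, the 5 coding transcripts most correlated with each, the 3 most correlated that the study pairs with an Arabidopsis gene, and members of the lists of vitamin B6 and of water deficit, osmoregulation and transport. List members named beside the counts were picked after their values were seen. Sequences and lengths were not used here.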

Additional observations from a re-analysis of the deposited data

How the results depend on the processing

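Over 17 results and 112 alternatives, 90 were counted as keeping their direction and side of the threshold or, for counts and values without a test, as staying near the value reported. This count takes DESeq2 fits without an adjusted p as kept where their direction held. It takes every alternative of the correlation between both transcripts as not kept, however small the shift. Site calls in leaves, 56 by the quasi-likelihood test with the default filter, became 966 by edgeR's exact test, 1133 by DESeq2, 46 without a filter and 0 to 105 without 1 library (0 without the leaf of St4, 105 without that of Eq6). Site calls in flowers went from 0 to 6 by the exact test, 50 by DESeq2 and 0 to 573 without 1 library, the last without the flower library labelled Eq6, where As_46832 reversed from 0.46 to -0.11. Its log2 fold change in flowers ranged from -0.11 to 2.47 without 1 library (2.47 without the flower of Eq5), and that of flower against leaf in equatorial trees from -4.02 to -1.39 without 1 tree. Calls between flowers and leaves, 8510 in equatorial and 10839 in subtropical trees, ranged from 3336 to 9002 and from 6651 to 8561 without 1 tree. With the tree as a replicate block they were 8690 and 13151, the log2 fold changes of As_46832 were -2.19 and 2.48 and that of As_31165 -1.67, and the block changed no call of either transcript. No paired analysis was possible between sites because different trees were sampled there. A prior count of 2 moved the stem log2 fold changes to -4.19 for As_46832 and -3.13 for As_31165. The correlation of both was 0.902 with a prior count of 0.5 and 0.930 without the flower library labelled Eq6. Of the 5 most alike transcripts, 0 remained for each by Spearman's correlation, and 3 for As_46832 and 4 for As_31165 without that library. The cause of these shifts was not tested. Of the alternatives that gave an adjusted p, none was under 0.05 for As_46832 in leaves, flowers or flower against leaf, or for As_31165 in leaves or equatorial flower against leaf. DESeq2 gave none to either. With at most 4 reads per library outside equatorial stems, depth limits every such comparison.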
